A study of Xenopus laevis with 13 samples.

Results

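The general transcription factors are the proteins that bring RNA polymerase II to a promoter and start transcription there. The transcripts that encode them were followed in *X. laevis*, from the fertilized egg to the gastrula. A list of 35 gene names, covering TBP and its paralogues, the TBP-associated factors (TAFs) of TFIID, and TFIIA, TFIIB, TFIIE, TFIIF and TFIIH, was matched to the names carried by the gene models, with every gene model of a name kept. The list found 64 of the 54110 gene models, under 33 of the names, while taf10 and gtf2h5 matched none under this rule. The species is allotetraploid. In all, 21 of the names stood on 2 or more gene models and 12 on a single one. Such gene models are called copies here and are numbered by their mean level, highest first. By symbol, the RefSeq annotation lists a gene on both subgenomes, L and S, for 11 of the 35 names. Copies therefore need not be the L and S forms of a gene.

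RNA was sequenced from 5 single eggs, 5 single embryos and 3 technical libraries. The eggs were turned, uncleaved and collected 60 minutes after fertilization in vitro, and the embryos were gastrulae of Nieuwkoop and Faber stage 10.5. All came from a single female that had received 700 units of human choriogonadotropin, and differences between females are outside what the p-values measure. The embryo libraries, technical ones included, were prepared with another kit than the egg libraries, so that developmental stage and library preparation cannot be told apart. The technical libraries of stage 10.5 are not described further in the labels and entered no test.

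TBP binds the core promoter, and the TAFs assemble around it to form TFIID. TFIIA and TFIIB join TBP on the promoter, TFIIF arrives with the polymerase, TFIIE then recruits TFIIH, and TFIIH opens the DNA and phosphorylates the polymerase tail. Vertebrates also have the paralogues TBPL1 and TBPL2, of which TBPL2 is known from the oocyte, and a paralogue of the large TFIIA subunit, GTF2A1L (also called ALF), known from germ cells. The egg is transcriptionally silent and relies on maternal RNA, and the zygotic genome is activated at the midblastula transition, before the gastrula stage that was sampled.

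Transcript abundance is given as FPKM, fragments per kilobase of gene model after scaling between libraries, as deposited. How the libraries were scaled is not given in the sources used here. Read numbers, worked out from the spacing of low FPKM values, ranged from 1505333 to 2919791 per egg, from 1363527 to 3815159 per embryo and from 723114 to 1170977 per technical library. Gastrula markers fitted the stage labels, since 31 of the 36 tested gene models of 13 gastrula marker genes were higher in embryos, and their summed level was 75.6 to 119 FPKM in eggs and 2973 to 3785 FPKM in embryos. The egg markers were less distinct, with 2 of 11 tested gene models higher in eggs, both of zar1, and 1 higher in embryos. The follicle cell markers summed to 5.87 to 8.37 FPKM in eggs and 4.02 to 16.5 FPKM in embryos, with fshr, inha and cyp19a1 at 0 in all 10 libraries. In eggs the sum came only from gene models named amh that also carry the name of another gene, sf3a2. The blood markers summed to 108 to 156 FPKM in eggs and 23.5 to 45.8 FPKM in embryos, nearly all of it from a single hba1 gene model; the part of either cell type in the results below was not tested.

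Eggs and embryos were compared with limma on log2(FPKM + 1), for gene models whose mean over the 10 single libraries reached 1 FPKM. A log2 change is embryo minus egg on that scale, and a gene model was called at a Benjamini-Hochberg adjusted p under 0.05 over all 19373 gene models tested. Of the 64 gene models, 55 passed the filter, 13 were called higher in embryos and 16 higher in eggs. Among all gene models tested, 31.6% were called higher in embryos and 25.2% higher in eggs, against 23.6% and 29.1% of the 55, so the shares of the general transcription factors lay near the background. Their median log2 change was -0.16, beside 0.12 over all gene models tested. The groups did not overlap, with embryos above eggs, for 9 of the 55 and, with embryos below eggs, for another 9, against backgrounds of 23.5% and 18.3%. Each library is a whole egg or embryo, so that fewer cells with a transcript and less of it per cell cannot be told apart. FPKM is also relative to the other reads of its library, and no measure of total RNA was used here. Rises and falls below are therefore those of FPKM, and need not be those of transcript per egg or embryo.

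By complex, TFIIA had 4 of its 7 tested gene models higher in embryos and 2 higher in eggs, and TFIIE had 3 of 5 higher in eggs and none higher in embryos (limma, with 0 at an unadjusted p under 0.05). Among those 3 of TFIIE is a short gtf2e1 gene model that overlaps another gtf2e1 gene model on the opposite strand. TFIIH had 2 higher in embryos and 4 higher in eggs of 10, and the TAFs 5 and 5 of 23. TFIIB had 1 of 2 higher in eggs, TFIIF had 1 of 3 higher in embryos, and of the 5 gene models of TBP and its paralogues 1 was called in each direction. The called TFIIF gene model also carries the name ptma, and 1 of the 4 of TFIIA higher in embryos also carries the name ston2. These counts describe small groups, and no test compared the complexes with each other. They stand beside 31.6% higher in embryos and 25.2% higher in eggs among all gene models tested.

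**Figure D1:**
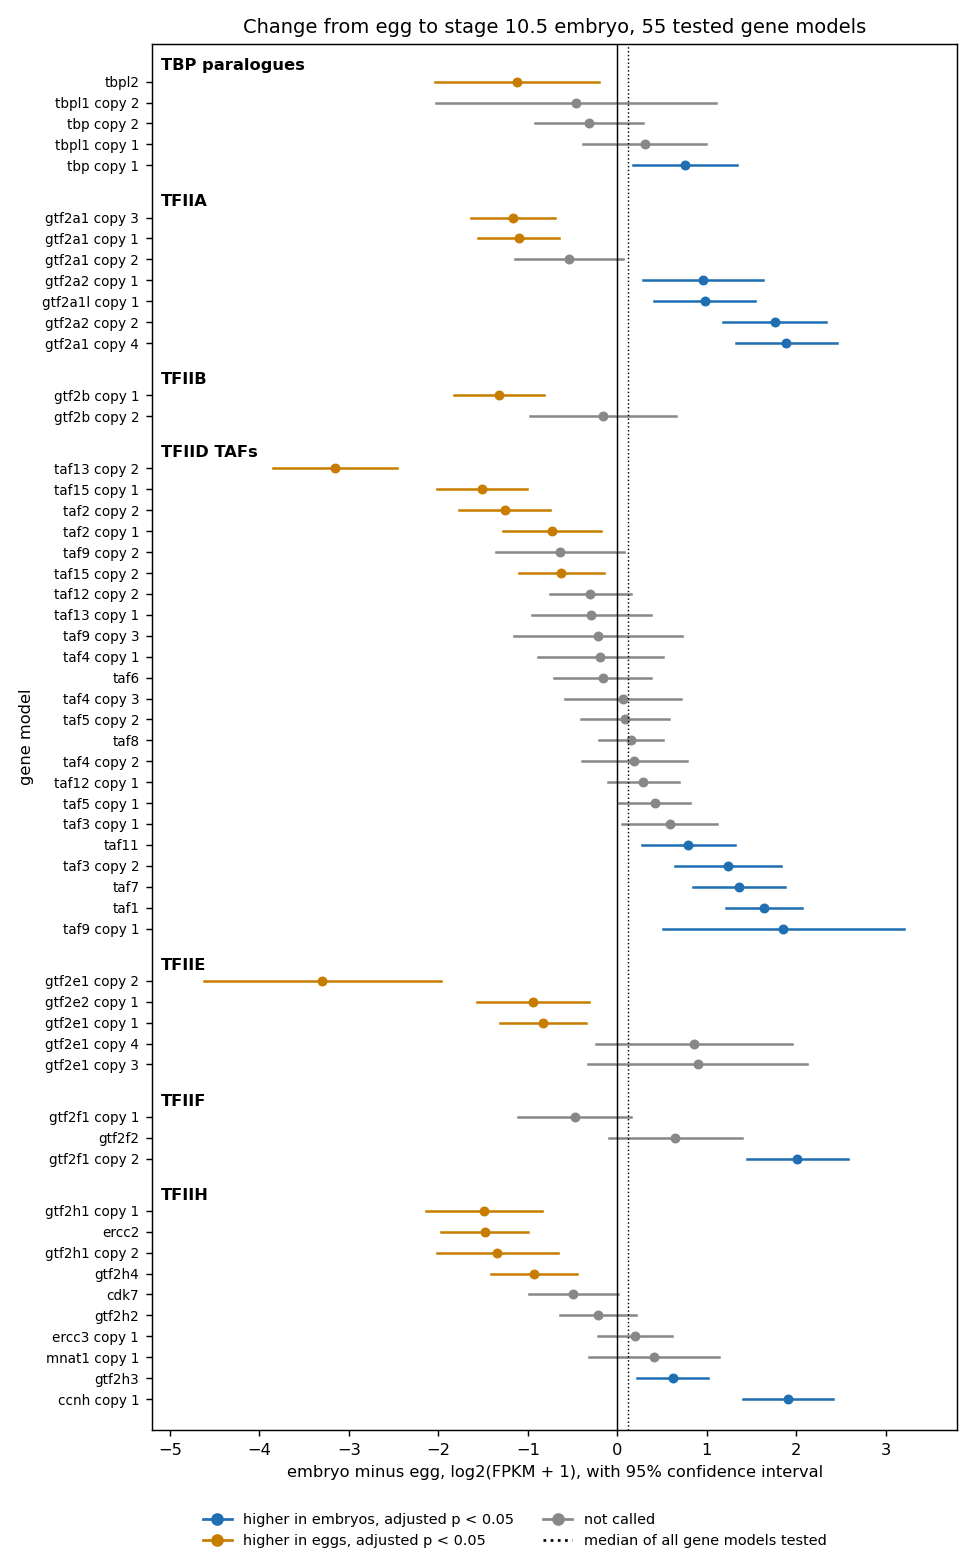
Log2 change from egg to stage 10.5 embryo (x axis, log2(FPKM + 1), with 95% confidence intervals) for the 55 tested gene models (y axis), grouped by complex and sorted within each. The 13 called higher in embryos lie right of 0 and the 16 called higher in eggs left of it, and both directions occur within TFIIA, the TAFs and TFIIH.

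TBP was the most abundant member of its family at both stages, and its 2 copies did not change alike. The first copy (scaffold 34423, 1782272 to 1792656, minus strand) was present at 86.2, 85.7, 45.7, 49.5 and 62.5 FPKM in eggs 1 to 5 and at 89.6, 117, 67.9, 122 and 171 FPKM in embryos 1 to 5. Its mean rose 1.72-fold, from 65.9 ± 19.3 (SD, n = 5) to 113 ± 38.96 FPKM, although the lowest embryo lay below the highest egg (log2 change 0.76, SE 0.27, limma adjusted p = 0.0305). That call was close to the threshold and was lost without egg 3, 4 or 5 and without embryo 2, 4 or 5, with log2 changes of 0.59 to 0.75 and adjusted p of 0.0538 to 0.0721, and with no filter on low values (adjusted p = 0.0507). The second copy (scaffold 176005, 572436 to 579759, plus strand) was present at 51.5, 85.9, 70.9, 48.8 and 40.4 FPKM in eggs and 35.01, 66.2, 28.4, 49.2 and 62.6 FPKM in embryos, and the groups overlapped (log2 change -0.31, 95% interval -0.92 to 0.29, limma adjusted p = 0.351).

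The difference between the copies themselves was tested within each library. A pair was formed where a name, aliases included, is carried by exactly 2 gene models of the whole table and both were tested. Over all 3759 such pairs, 36.3% changed unequally (limma on the log2 difference between the copies, adjusted p under 0.05). The first tbp copy gained 1.07 log2 units on the second from egg to embryo (SE 0.27, adjusted p = 0.00992), and this held without any single library. The first copy supplied 39.2% to 62.6% of the tbp FPKM in the 5 eggs and 63.8% to 73.2% in the 5 embryos, so these ranges did not overlap.

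TBPL2 (gene tbpl2, scaffold 91950, 911568 to 923528, plus strand) went the other way. It was present at 8.91, 13.2, 23.6, 27.003 and 16.02 FPKM in eggs and at 6.08, 10.2, 1.97, 11.1 and 11.1 FPKM in embryos, where embryo 3 was the lowest with about 2 recovered reads. The mean was 2.19-fold higher in eggs, 17.8 ± 7.44 against 8.09 ± 4.004 FPKM (SD, n = 5), with egg 1 inside the embryo range (log2 change -1.12, SE 0.42, limma adjusted p = 0.0388). The call did not hold without egg 3, 4 or 5 or without embryo 1 or 3, with log2 changes of -1.13 to -0.75 and adjusted p of 0.0617 to 0.0908, nor with a pseudocount of 0.1 (adjusted p = 0.0505), median-of-ratios scaling (0.0522) or no filter on low values (0.0691). The technical libraries of stage 10.5 held 14.03, 19.7 and 14.1 FPKM, all above the 5 single embryos and within the egg range.

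TBPL1, known as TLF or TRF2, was read mainly from its first copy (scaffold 6529, 540547 to 553193, plus strand), at 29.5, 37.6, 70.9, 52.99 and 39.4 FPKM in eggs and 41.4, 68.9, 30.6, 58.8 and 93.7 FPKM in embryos. The groups overlapped widely and no change was called (log2 change 0.30, 95% interval -0.38 to 0.99, limma adjusted p = 0.425). The second copy (scaffold 137442, 2556 to 13110, minus strand) lay at 2.43, 0.707, 38.3, 2.09 and 1.91 FPKM in eggs and 2.35, 2.88, 4.57, 0.958 and 1.97 FPKM in embryos. Egg 3 alone stood far above the others there, and without it the log2 change turned from -0.46 to 0.31, neither being called.

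As a share of the summed FPKM of tbp, tbpl1 and tbpl2, tbpl2 made up 4.99%, 5.94%, 9.45%, 15.0% and 10.002% in eggs 1 to 5. In embryos 1 to 5 it made up 3.48%, 3.86%, 1.48%, 4.5995% and 3.24%. Every egg was above every single embryo, though egg 1 only just, and the means were 9.07% ± 3.95 and 3.33% ± 1.16 (SD, n = 5). The technical libraries of stage 10.5 held 3.42%, 5.39% and 4.84%, and technical library 2 thus lay above egg 1. The share of tbp was 63.9% ± 13.5 in eggs and 70.4% ± 1.495 in embryos, and that of tbpl1 27.0% ± 10.9 and 26.3% ± 1.405. Both varied less among the 5 single embryos than among the 5 eggs, a difference in spread that was not tested. Egg 3, with its high second tbpl1 copy, had the lowest tbp share (46.7%) and the highest tbpl1 share (43.8%). The technical libraries of stage 10.5 held tbp shares of 64.5% to 74.5% and tbpl1 shares of 20.1% to 30.6%, wider than the single embryos. TBP mRNA exceeded TBPL2 mRNA in each of the 10 libraries, per kilobase of transcript.

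**Figure D2:**
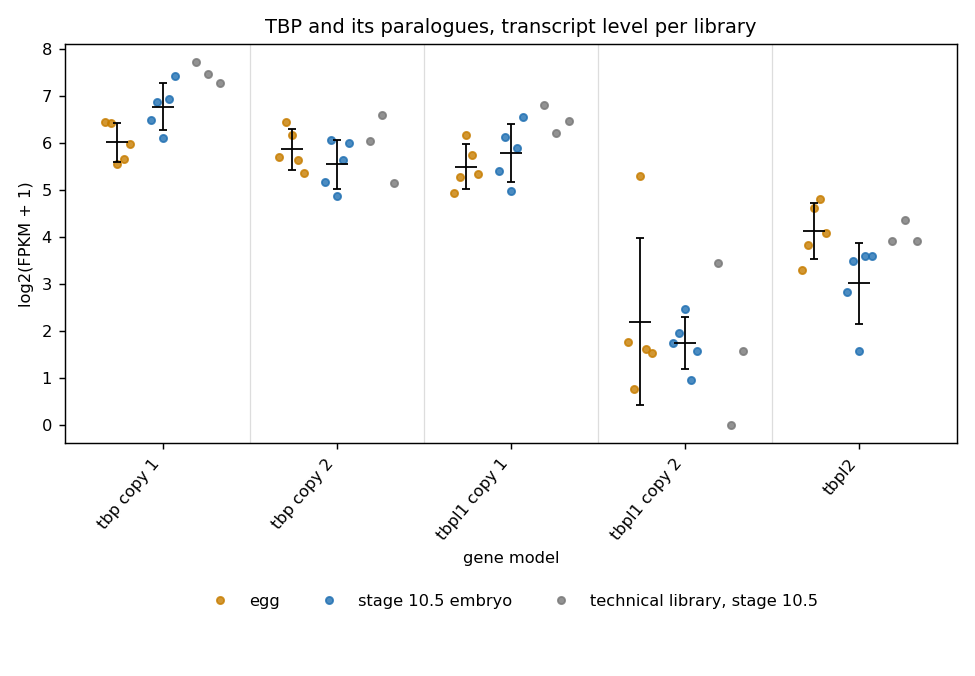
Transcript level (y axis, log2(FPKM + 1)) of the 5 gene models of TBP and its paralogues (x axis) in 5 eggs, 5 stage 10.5 embryos and 3 technical libraries; each point is a library, and black bars give the mean and SD of eggs and embryos. The first tbp copy reached 171 FPKM in embryo 5, while tbpl2 stayed between 1.97 and 27.0 FPKM in the single libraries.

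TFIIA stabilizes TBP on the promoter, and its subunits moved in opposite directions. The small subunit gamma, gtf2a2, increased at both copies. The first (scaffold 38656, 1552687 to 1558840, minus strand) was present at 85.6, 149, 239, 96.9 and 82.4 FPKM in eggs and 258, 183, 168, 253 and 338 FPKM in embryos, with egg 3 inside the embryo range (log2 change 0.95, SE 0.31, limma adjusted p = 0.0193). Without embryo 5 its log2 change was 0.82 and the adjusted p 0.0501, and with the replicate number as a block the adjusted p was 0.0542. The second copy (scaffold 59883, 4877695 to 4886217, minus strand) went from 108, 49.8, 110.2, 59.6 and 57.6 FPKM to 279.9, 179.8, 213, 262 and 335 FPKM, with every embryo above every egg and a 3.299-fold higher mean (log2 change 1.76, SE 0.26, limma adjusted p = 1.63e-04).

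The first gtf2a2 copy supplied 44.3% to 75.0% of the gtf2a2 FPKM in eggs and 44.1% to 50.5% in embryos. The unequal change of the copies, 0.80 log2 units in favour of the second, did not pass the test (adjusted p = 0.0630), but did without egg 1 (1.06, adjusted p = 0.00719). The technical libraries held 390.5 to 576 FPKM of the first copy and 537 to 565 FPKM of the second, all above the highest single embryo.

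The large subunit precursor, gtf2a1, which is cleaved into alpha and beta, decreased. Its first copy (scaffold 39723, 5268077 to 5281542, plus strand) was even in eggs, at 67.5, 70.9, 81.7, 76.8 and 74.7 FPKM, and fell to 32.1, 39.7, 51.5, 31.7 and 21.6 FPKM in embryos. The mean was 2.105-fold higher in eggs and no library overlapped (log2 change -1.10, SE 0.21, limma adjusted p = 7.90e-04). The second copy (scaffold 7940, 1981319 to 1995081, plus strand) was at 29.4, 68.4, 58.3, 52.1 and 47.95 FPKM in eggs and 36.9, 48.8, 39.5, 32.1 and 18.99 FPKM in embryos, with overlapping groups (log2 change -0.54, 95% interval -1.14 to 0.07, limma adjusted p = 0.117). Egg 1 was the lowest egg, and without it the log2 change was -0.72 with an adjusted p of 0.0327. These 2 copies form a pair through a further name, tfiiaa/b-1, that only they carry. Whether they changed unequally was not settled (0.57 log2 units, adjusted p = 0.0836), and without egg 2 the difference passed (0.70, adjusted p = 0.0377).

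A further 2 gene models named gtf2a1 lie next to the second copy on the same scaffold. The third (scaffold 7940, 1994983 to 1997446, minus strand) lies on the strand opposite to the second copy and shares 99 exonic bases with it, and the reads of such partners cannot be told apart unless the counting used strand. The libraries were prepared to keep strand, but the sources used here do not state whether the counting used it. It went from 27.1, 39.1, 42.9, 36.4 and 27.2 FPKM in eggs to 17.04, 17.7, 14.3, 16.3 and 9.08 FPKM in embryos, without overlap (log2 change -1.17, SE 0.21, limma adjusted p = 6.89e-04). The fourth (scaffold 7940, 1895928 to 1969414, plus strand) also carries the name ston2, an endocytic adaptor gene, and rose from 1.34, 0.3503, 0.603, 1.61 and 1.79 FPKM to 6.53, 5.46, 6.55, 5.69 and 9.45 FPKM (log2 change 1.89, SE 0.26, limma adjusted p = 8.53e-05). A ston2 gene model elsewhere, on scaffold 39723, was at 0.340 ± 0.761 FPKM in eggs and 2.07 ± 0.793 FPKM in embryos (log2 change 1.30, limma adjusted p = 0.00637), so the rise of the joint gene model cannot be given to gtf2a1.

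GTF2A1L, the germ cell paralogue of the large subunit, was higher in embryos. Its main gene model (scaffold 102974, 17567554 to 17593412, plus strand) was present at 5.19, 2.81, 4.02, 8.14 and 7.71 FPKM in eggs and 9.13, 11.4, 10.4, 11.4 and 14.5 FPKM in embryos, with the lowest embryo above the highest egg (log2 change 0.98, SE 0.26, limma adjusted p = 0.00703). A second gene model (scaffold 27036, 4653388 to 4686172, plus strand) had no read in any egg, where 3 reads would have been 0.163 to 0.234 FPKM, and was at 0.684, 0.862, 1.17, 1.31 and 1.52 FPKM in embryos, with all 5 above 0. It was under the minimum of 1 FPKM over both groups and was not tested. The third gene model (scaffold 102974, 17484468 to 17519861, plus strand) was above 0, among the single libraries, only in egg 2 and embryo 1, at no more than 0.501 FPKM.

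The share of gtf2a1l in the summed FPKM of gtf2a1 and gtf2a1l was 3.97%, 1.82%, 2.15%, 4.65% and 4.84% in eggs 1 to 5. It was 9.73%, 9.92%, 9.39%, 12.9% and 21.3% in embryos 1 to 5, with means of 3.49% ± 1.42 and 12.7% ± 5.05 (SD, n = 5). The ranges did not overlap, and embryo 5 was the highest embryo. The technical libraries held 29.5%, 12.3% and 18.1%, above every egg. With only the first 2 copies of gtf2a1 and the main gene model of gtf2a1l in the sum, a choice made after the data were seen, the shares were 4.34% ± 1.84 and 15.0% ± 6.61. The canonical large subunit still exceeded its paralogue in every library.

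**Figure D3:**
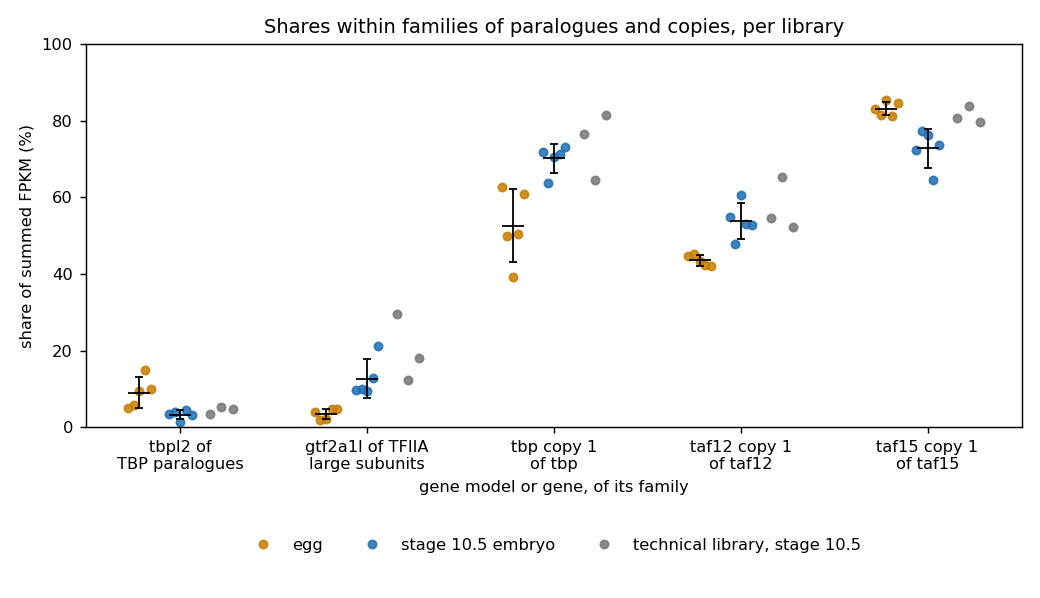
Share of summed FPKM (y axis, percent) held by tbpl2 within the TBP paralogues, by gtf2a1l within the TFIIA large subunits, and by the first copy of tbp, taf12 and taf15 among their copies, per library; black bars give the mean and SD of eggs and embryos. The share of gtf2a1l was 1.82% to 4.84% in eggs and 9.39% to 21.3% in embryos, and that of tbpl2 4.99% to 15.0% and 1.48% to 4.5995%.

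TFIIB, encoded by gtf2b, bridges TBP and the polymerase, and its transcript decreased. The first copy (scaffold 47606, 2625044 to 2633410, plus strand) was present at 77.04, 48.5, 47.03, 35.7 and 62.2 FPKM in eggs and 22.3, 17.7, 14.4, 22.9 and 26.2 FPKM in embryos. The lowest egg lay above the highest embryo, and the mean was 2.61-fold higher in eggs (log2 change -1.32, SE 0.23, limma adjusted p = 4.65e-04). The second copy (scaffold 181903, 3403248 to 3414198, minus strand) was close to the detection limit at both stages, with 0 to 3.22 FPKM in eggs and 0.311 to 1.304 FPKM in embryos, at most about 7 recovered reads (log2 change -0.16, 95% interval -0.98 to 0.66, limma adjusted p = 0.733). At that depth the copies could not be shown to change unequally (-1.16, 95% interval -2.23 to -0.10, adjusted p = 0.0828), although the unadjusted interval left out 0.

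TFIIE followed the same direction in both of its subunits. The alpha subunit, gtf2e1, was read mainly from its first copy (scaffold 31034, 525192 to 538083, minus strand), at 26.3, 17.7, 40.8, 24.7 and 25.4 FPKM in eggs and 14.3, 14.9, 18.4, 13.5 and 10.9 FPKM in embryos. Only egg 2 lay inside the embryo range (log2 change -0.83, SE 0.22, limma adjusted p = 0.00704). The beta subunit, gtf2e2 (scaffold 58878, 3971016 to 4000055, plus strand), was present at 29.3, 51.6, 62.1, 21.8 and 33.5 FPKM in eggs and 19.3, 15.9, 13.1, 24.1 and 23.8 FPKM in embryos, and egg 4 lay inside the embryo range (log2 change -0.94, SE 0.29, limma adjusted p = 0.0148). The means were 1.87-fold and 2.06-fold higher in eggs, respectively. A second gtf2e2 gene model was above 0 only in egg 5, at 0.294 FPKM.

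A short second gene model of gtf2e1 (scaffold 31034, 526128 to 535655, plus strand) had the largest decrease of all 55. It was present at 38.2, 12.5, 11.1, 8.86 and 10.6 FPKM in eggs and at 0, 0, 0, 6.95 and 0 FPKM in embryos, and it was listed at 0 in all 3 technical libraries (log2 change -3.30, SE 0.60, limma adjusted p = 6.94e-04). Of its 533 bases, nearly all are exonic bases of the first copy on the other strand. The embryo values correspond to no read assigned to it in 4 embryos and about 5 in embryo 4. The egg values correspond to about 8 to 32 reads, so the ratio of the means rests on few reads. These were not all whole numbers, with 8.28, 8.64 and 11.3 in eggs 3 to 5. How reads over the shared bases were divided between the first and second gene models was not tested, so this decrease may not be one of transcript. The third copy (scaffold 14692, 1000062 to 1006541, minus strand) was at 0, 6.86, 0, 2.33 and 4.895 FPKM in eggs and 4.09, 5.303, 3.06, 3.52 and 4.84 FPKM in embryos, with 2 eggs at 0 (log2 change 0.90, 95% interval -0.33 to 2.12, limma adjusted p = 0.19). The fourth (scaffold 207208, 4568334 to 4577845, minus strand) was at 0 to 2.601 FPKM and 0 to 3.46 FPKM and was not called (log2 change 0.85, 95% interval -0.24 to 1.95, limma adjusted p = 0.165), but was without egg 1 (log2 change 1.19, adjusted p = 0.0465) and without embryo 3 (1.19, adjusted p = 0.0461).

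**Figure D4:**
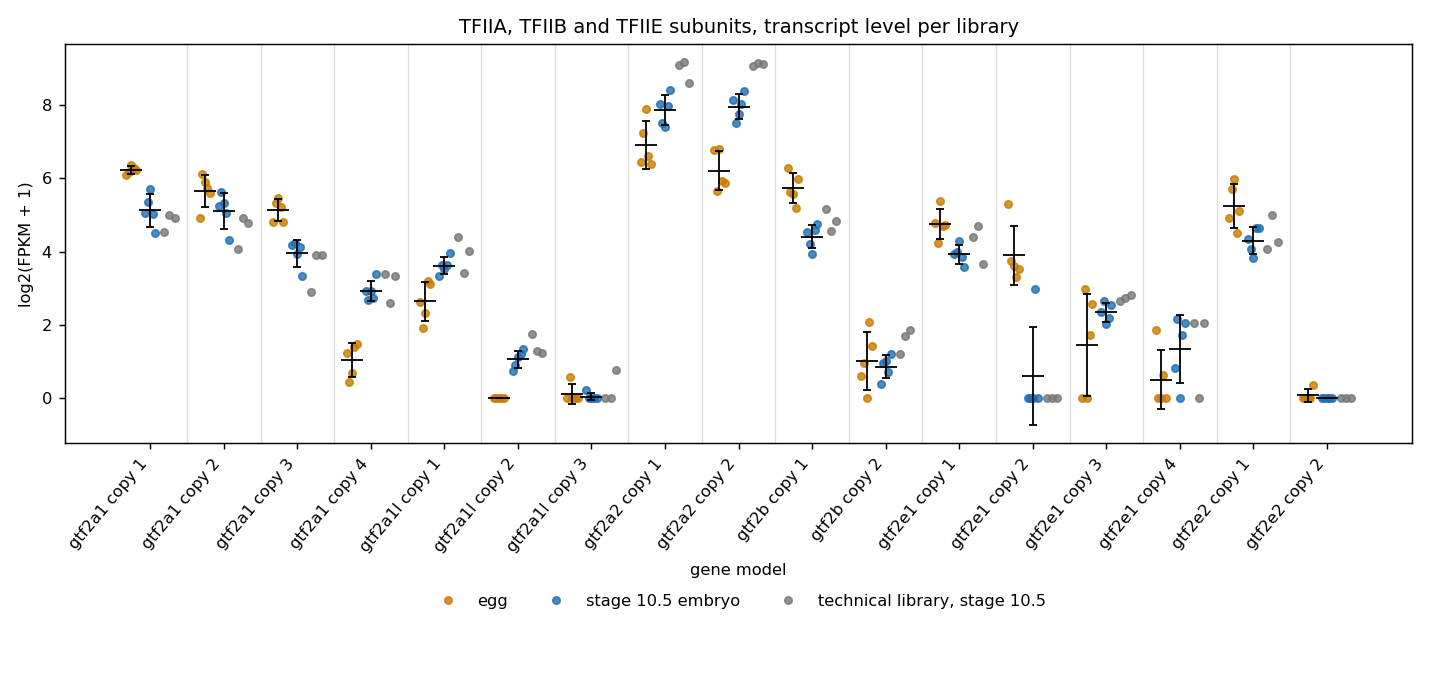
Transcript level (y axis, log2(FPKM + 1)) of the gene models of TFIIA, TFIIB and TFIIE (x axis) in eggs, stage 10.5 embryos and technical libraries; each point is a library, and black bars give the mean and SD of eggs and embryos. Both gtf2a2 copies and the main gtf2a1l gene model were higher in embryos, and the first copies of gtf2a1, gtf2b, gtf2e1 and gtf2e2 were higher in eggs.

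The TAFs had 26 gene models under 13 names, of which 23 were tested. Those called higher in embryos were taf1, taf7, taf11, the second copy of taf3 and the first of taf9, and those higher in eggs were both copies of taf2 and taf15 and the second copy of taf13. TAF1, the large scaffold of TFIID (scaffold 36991, 1705257 to 1745864, plus strand), was the TAF with the lowest summed level in eggs, at 2.38, 2.25, 1.49, 1.31 and 2.13 FPKM, and rose to 7.86, 9.28, 6.46, 7.34 and 9.01 FPKM in embryos. Every embryo was above every egg, and the mean was 4.18-fold higher (log2 change 1.63, SE 0.19, limma adjusted p = 2.97e-05). TAF7, which binds TAF1 and restrains its acetyltransferase activity (scaffold 36864, 1581537 to 1610776, minus strand), went from 5.59, 8.48, 12.6, 11.5 and 12.2 FPKM in eggs to 26.7, 21.6, 23.8, 24.97 and 37.3 FPKM in embryos, again without overlap (log2 change 1.36, SE 0.23, limma adjusted p = 4.63e-04).

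TAF3 binds methylated histone H3 through a PHD finger, and its second copy (scaffold 12518, 11264508 to 11317033, plus strand) rose from 0.7700, 3.74, 1.61, 1.04 and 1.64 FPKM to 4.596, 5.47, 4.34, 4.93 and 6.43 FPKM (log2 change 1.24, SE 0.27, limma adjusted p = 0.00226). The first taf3 copy did not pass the threshold (log2 change 0.59, adjusted p = 0.0574), and the copies could not be shown to change unequally (adjusted p = 0.142), except without egg 2 (adjusted p = 0.0323). The first copy of taf9, a histone-fold partner of TAF6 (scaffold 50694, 945526 to 960198, plus strand), also carries the name of its paralogue taf9b, so its reads cannot be given to either. It was at 5.33, 0, 8.997, 10.5 and 6.69 FPKM in eggs and 14.5, 20.8, 10.02, 20.8 and 41.5 FPKM in embryos, with egg 2 at 0 and embryo 5 high (log2 change 1.85, SE 0.62, limma adjusted p = 0.0228). Without embryo 5 the log2 change was 1.59 and the adjusted p 0.0612, and with a pseudocount of 0.1 the adjusted p was 0.0764. The other taf9 gene models had log2 changes of -0.64 and -0.22 and were not called. Both share exonic bases with gene models on the other strand, the third copy with rad17.

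TAF2, which contacts the initiator element, was higher in eggs at both copies. The second copy (scaffold 44528, 352122 to 417890, minus strand) was at 4.66, 6.92, 10.3, 4.52 and 7.16 FPKM in eggs and 2.19, 2.29, 2.05, 2.46 and 1.61 FPKM in embryos, without overlap and 3.16-fold higher on average in eggs (log2 change -1.26, SE 0.23, limma adjusted p = 6.92e-04). The first (scaffold 50079, 289591 to 363853, minus strand) was at 9.69, 11.4, 16.5, 6.03 and 10.6 FPKM and 6.54, 4.001, 7.199, 6.78 and 5.299 FPKM, with egg 4 among the embryos (log2 change -0.73, SE 0.25, limma adjusted p = 0.0266). Its call was lost without egg 2 or 3 and without embryo 2 or 5 (log2 changes -0.70 to -0.57, adjusted p 0.0507 to 0.0673). The difference between the copies missed the threshold (adjusted p = 0.0711) and passed without embryo 2 (adjusted p = 0.0289) and with a pseudocount of 0.1 (adjusted p = 0.0333).

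TAF15, an RNA-binding protein that associates with TFIID, was also higher in eggs at both copies, unequally. The first (scaffold 47398, 2610792 to 2633595, minus strand) went from 64.8, 68.9, 121, 91.8 and 79.8 FPKM to 25.7, 33.1, 41.8, 26.1 and 19.8 FPKM, a 2.91-fold higher mean in eggs without overlap (log2 change -1.52, SE 0.23, limma adjusted p = 1.81e-04). The second (scaffold 267344, 2240628 to 2266087, plus strand) went from 13.2, 15.5, 20.97, 21.1 and 14.6 FPKM to 9.87, 9.72, 12.9, 14.4 and 7.07 FPKM (log2 change -0.63, SE 0.22, limma adjusted p = 0.0275), a call that was lost without egg 3 or 4 and without embryo 1, 2 or 5 (log2 changes -0.61 to -0.50, adjusted p 0.0536 to 0.0673). The first copy fell by 0.89 log2 units more than the second (SE 0.22, adjusted p = 0.00867), which held without any single library. Its share of the taf15 FPKM was 81.3% to 85.3% in eggs and 64.5% to 77.3% in embryos, but 79.8% to 83.7% in the technical libraries.

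The copies of taf12, the histone-fold partner of TAF4, changed unequally while neither passed the test alone. The first (scaffold 8834, 118130 to 131522, plus strand) was at 81.5, 124, 86.7, 90.8 and 72.5 FPKM in eggs and 103, 96.5, 94.3, 115 and 146 FPKM in embryos (log2 change 0.29, 95% interval -0.11 to 0.68, limma adjusted p = 0.194). The second (scaffold 98463, 1447165 to 1460575, plus strand) was at 101, 151, 113, 124 and 100.0 FPKM and 85.4, 105, 61.4, 101 and 131 FPKM (log2 change -0.30, 95% interval -0.76 to 0.15, limma adjusted p = 0.231). Neither was called, and the summed taf12 level was 209 ± 40.3 FPKM in eggs and 208 ± 45.0 FPKM in embryos. The first copy nonetheless gained 0.59 log2 units on the second (SE 0.19, adjusted p = 0.0281), and its share was 42.03% to 45.2% in eggs and 47.8% to 60.6% in embryos. This call was lost without egg 4 or 5 and without embryo 1, 3 or 4 (0.49 to 0.60 log2 units, adjusted p 0.0537 to 0.0676), and with the replicate number as a block (adjusted p 0.0737).

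TAF13, the partner of TAF11 in a histone-fold pair, had the most unequal copies. The second (scaffold 207208, 4169488 to 4173047, minus strand), which also carries the name dfnb59, was at 9.28, 14.3, 4.47, 10.9 and 10.8 FPKM in eggs and only 1.04, 0, 0.0722, 0 and 0 FPKM in embryos (log2 change -3.15, SE 0.32, limma adjusted p = 8.64e-06). The first (scaffold 307556, 53154 to 56845, minus strand) was at 31.4, 49.1, 104, 80.5 and 35.9 FPKM and 49.004, 36.2, 47.4, 40.96 and 47.8 FPKM and was not called (log2 change -0.29, 95% interval -0.96 to 0.37, limma adjusted p = 0.427). The second copy fell by 2.86 log2 units relative to the first (SE 0.49, adjusted p = 0.00110). Both gene models lie wholly within exons of ndc80, a kinetochore gene on the other strand, so that reads of the partners cannot be told apart without strand. The ndc80 gene model over the second copy went from 6.25 ± 2.51 to 10.9 ± 2.03 FPKM (log2 change 0.76, limma adjusted p = 0.0190). Reads recovered for the second taf13 copy were 19.7, 34.97, 8.43, 26.8 and 29.3 in eggs 1 to 5, mostly not whole numbers. How reads were divided between the partners was not tested, so the changes of taf13 and ndc80 may not be separate. In the technical libraries the second copy was at 10.6, 0 and 7.95 FPKM, with technical libraries 1 and 3 inside the egg range and above the embryos of their own stage.

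Of the remaining TAFs, only taf11 was called. It went from a mean of 31.6 ± 11.02 to 54.7 ± 14.5 FPKM (SD, n = 5), with overlapping groups (log2 change 0.79, SE 0.24, limma adjusted p = 0.0133). The gene models of taf4, taf5, taf6 and taf8 that were tested had log2 changes from -0.19 to 0.42, with none called, and taf8 was the steadiest of them in level, at 59.99 ± 8.96 FPKM in eggs and 66.8 ± 11.1 FPKM in embryos. The second taf4 copy also carries the name taf4b. The third taf4 and second taf5 copies share exonic bases with gene models on the other strand. A p that misses the threshold does not show that levels were equal: the 95% interval for taf8 ran from -0.21 to 0.51 log2 units and that for the first taf4 copy from -0.89 to 0.51. Untested gene models of taf4 and taf5 stayed at or below 2.62 FPKM in every single library, and the third taf5 gene model was at 0 in all 5 eggs and above 0 in 3 embryos.

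TFIIF consists of gtf2f1 (RAP74) and gtf2f2 (RAP30), neither of which could be read without doubt. The first gtf2f1 copy (scaffold 55171, 1390423 to 1414481, plus strand), which also carries the name glul, was at 14.1, 5.64, 14.6, 9.18 and 17.4 FPKM in eggs and 6.85, 10.5, 10.04, 5.64 and 7.53 FPKM in embryos and was not called (log2 change -0.47, 95% interval -1.11 to 0.16, limma adjusted p = 0.18), except without egg 2 (log2 change -0.70, adjusted p = 0.0291). The second (scaffold 293841, 203880 to 216307, plus strand) is a gene model of 7583 bases that also carries the name ptma, prothymosin alpha, and rose from 1.88, 0.421, 0.484, 0.646 and 0.632 FPKM to 6.33, 4.199, 5.05, 7.55 and 7.76 FPKM (log2 change 2.01, SE 0.26, limma adjusted p = 5.49e-05). The 2 gene models changed unequally by 2.48 log2 units (SE 0.36, adjusted p = 3.43e-04). The second has 5 exons and 417 coding bases, against 14 exons and 1578 coding bases in the first. A separate ptma gene model on scaffold 45774 rose as well, from 10.7 ± 9.48 to 32.8 ± 12.3 FPKM (log2 change 2.11, limma adjusted p = 0.0286). The rise of the joint gene model cannot be given to gtf2f1, and the unequal change need not be one between gtf2f1 copies. For gtf2f2 the mean was 19.3 ± 13.6 FPKM in eggs and 26.7 ± 3.702 FPKM in embryos, and egg 3 was above all embryos (log2 change 0.65, 95% interval -0.10 to 1.39, limma adjusted p = 0.124).

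TFIIH has a core, which holds the DNA helicases XPB (ercc3) and XPD (ercc2), and a kinase module of cdk7, cyclin H (ccnh) and MAT1 (mnat1). In the core, ercc2 (scaffold 50694, 5828085 to 5842148, plus strand) was 2.83-fold higher on average in eggs, at 32.3, 34.1, 30.1, 26.9 and 33.2 FPKM, than in embryos, at 9.53, 7.12, 18.3, 8.79 and 11.6 FPKM, without overlap (log2 change -1.48, SE 0.22, limma adjusted p = 1.69e-04). The p62 subunit gtf2h1 was higher in eggs at both copies. Its first copy (scaffold 47091, 1565395 to 1570833, plus strand) was at 25.2, 16.6, 35.4, 23.2 and 30.6 FPKM and 6.196, 10.3, 16.4, 5.27 and 7.25 FPKM, narrowly without overlap (log2 change -1.49, SE 0.30, limma adjusted p = 0.0012), and the second (scaffold 93786, 404079 to 410779, minus strand) at 27.8, 26.9, 10.2, 25.3 and 22.5 FPKM and 8.31, 5.38, 14.5, 6.501 and 6.702 FPKM, with egg 3 among the embryos (log2 change -1.34, SE 0.31, limma adjusted p = 0.00317). The copies of gtf2h1 could not be shown to differ in their change (-0.15 log2 units, 95% interval -1.04 to 0.75).

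The p52 subunit gtf2h4, which anchors XPB (scaffold 5732, 4265744 to 4286340, minus strand), was at 37.5, 20.3, 29.4, 29.4 and 37.8 FPKM in eggs and 14.8, 11.4, 13.1, 21.3 and 17.7 FPKM in embryos, with egg 2 below embryo 4 (log2 change -0.94, SE 0.22, limma adjusted p = 0.00346). The p34 subunit gtf2h3 (scaffold 395028, 67839 to 89844, minus strand) was the only core gene model called higher in embryos, at 20.9, 16.5, 18.4, 18.7 and 15.01 FPKM in eggs and 24.98, 27.3, 21.4, 29.4 and 39.3 FPKM in embryos (log2 change 0.62, SE 0.18, limma adjusted p = 0.012). It carries the name eif2b1 too, and in the technical libraries it lay at 31.6, 19.9 and 20.98 FPKM, partly below the single embryos. The other helicase, ercc3, was at 27.4 ± 5.901 FPKM in eggs and 31.4 ± 5.496 FPKM in embryos and was not called (log2 change 0.20, 95% interval -0.21 to 0.61, limma adjusted p = 0.384). Nor was gtf2h2 called (log2 change -0.22, 95% interval -0.64 to 0.21, limma adjusted p = 0.357). In the technical libraries ercc3 lay at 13.1 to 21.1 FPKM and gtf2h2 at 12.8 to 16.9 FPKM, both below every single embryo. There ercc2 lay at 6.51 to 9.55 FPKM.

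In the kinase module, ccnh stood apart. Its main gene model (scaffold 1187, 7201707 to 7210530, plus strand) rose from 38.8, 56.3, 29.5, 50.3 and 50.7 FPKM in eggs to 155, 149, 129, 168 and 262 FPKM in embryos, a 3.83-fold higher mean with every embryo well above every egg (log2 change 1.90, SE 0.23, limma adjusted p = 3.27e-05). The technical libraries held 316, 276 and 281 FPKM, higher still. The kinase cdk7 was at 20.1 ± 5.84 FPKM in eggs and 13.6 ± 2.19 FPKM in embryos (log2 change -0.49, 95% interval -0.99 to 0.01, limma adjusted p = 0.0859), and mnat1 at 20.4 ± 13.4 FPKM and 24.9 ± 6.68 FPKM (log2 change 0.41, 95% interval -0.32 to 1.14, limma adjusted p = 0.311), neither being called. The first mnat1 gene model shares 236 exonic bases with an unnamed gene model on the other strand. The second gene models of ercc3 and ccnh were listed at 0 in all libraries, and that of mnat1 was above 0 only in embryos 1 and 3. In the summed level of each gene, ccnh exceeded cdk7 in the mean 2.24-fold in eggs and 12.7-fold in embryos, per kilobase of transcript.

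**Figure D5:**
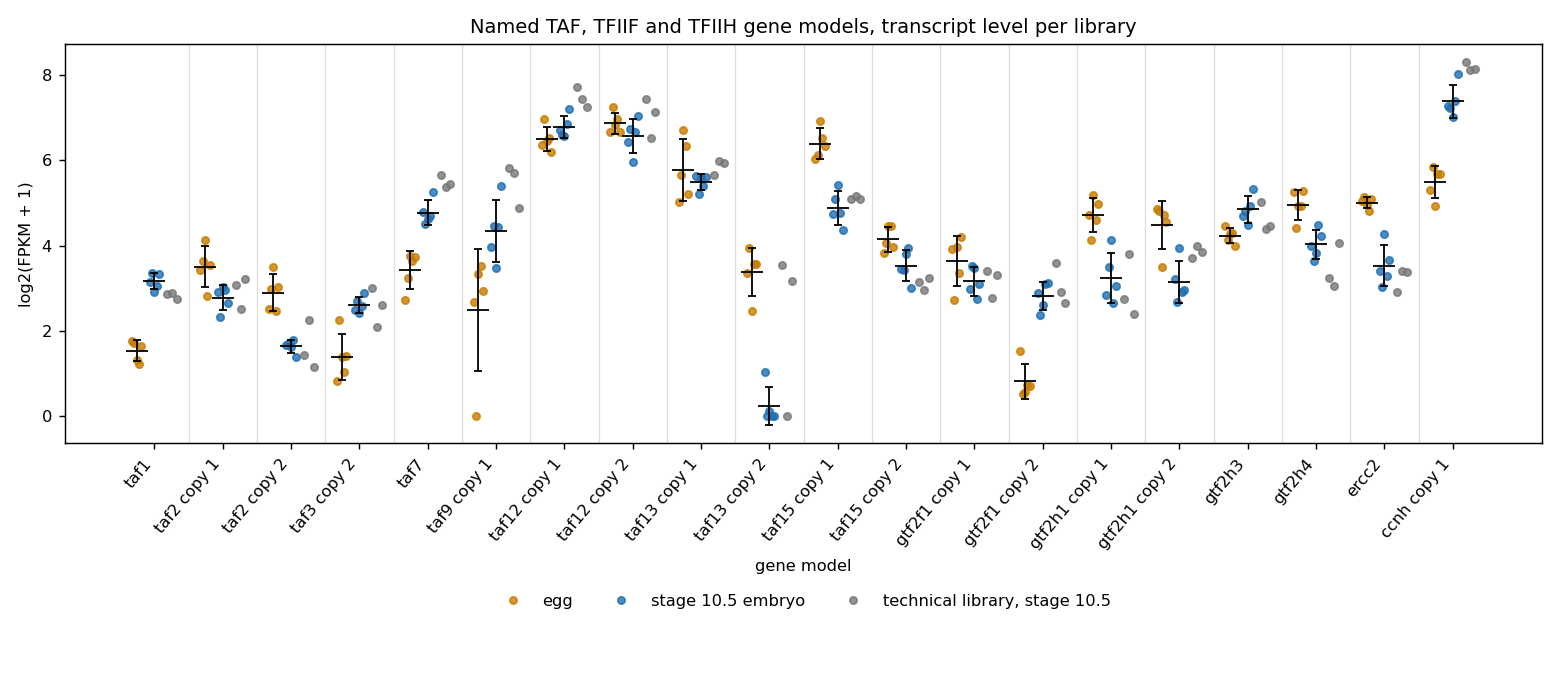
Transcript level (y axis, log2(FPKM + 1)) of the TAF, TFIIF and TFIIH gene models with the largest called changes, and of the copy pairs with unequal change (x axis), in eggs, stage 10.5 embryos and technical libraries; each point is a library, and black bars give the mean and SD of eggs and embryos. The main ccnh gene model was at 29.5 to 56.3 FPKM in eggs and 129 to 262 FPKM in embryos, and the second taf13 copy at 4.47 to 14.3 FPKM and 0 to 1.04 FPKM.

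Among the copy pairs of these genes, 5 of 12 changed unequally (41.7%), beside the 36.3% of all pairs. They were tbp, taf12, taf13, taf15 and gtf2f1, the last with a gene model that also carries the name ptma. Of these, tbp and taf15 are the pairs that carry no name of another gene (aliases such as tfiidtau for tbp aside), have no opposite-strand partner and kept the call without any single library. Both taf12 copies and the first taf2 copy share exonic bases with unnamed gene models on the other strand. By RefSeq symbol, taf13 is listed only on subgenome S and gtf2f1 only on L, so their pairs may not be L and S forms. No pair showed a called rise at a copy together with a called fall at the other.

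With all copies of a gene summed, the 33 genes ranged widely in level. Among eggs the highest means were those of taf12 (209 FPKM), gtf2a2 (208 FPKM), gtf2a1 (161 FPKM), tbp (125 FPKM) and taf15 (102 FPKM), with SDs of 40.3, 82.8, 23.6, 30.0 and 25.9 FPKM. Neighbours in this order differed by less than the larger of their SDs except gtf2a1 and tbp, whose ranges still overlapped (125 to 184 and 98.3 to 172 FPKM). In embryos gtf2a2 led with 494 ± 127 FPKM, followed by taf12 (208 ± 45.0), ccnh (173 ± 52.2), tbp (162 ± 53.4) and gtf2a1 (92.2 ± 21.8). The lowest in eggs were taf1 (1.91 ± 0.481 FPKM), taf3 (5.29 ± 1.87) and gtf2a1l (5.68 ± 2.17), and in embryos taf1 (7.99 ± 1.17), taf2 (8.08 ± 1.39) and tbpl2 (8.09 ± 4.004). Summing the copies ended the calls of 4 genes. The log2 change of the sum was 0.33 for tbp (limma adjusted p = 0.265), 0.31 for taf9 (0.381), -0.55 for taf13 (0.0821) and 0.21 for gtf2f1 (0.490). The sum of the taf5 gene models was called higher in embryos, although none of them was called alone (log2 change 0.44, limma adjusted p = 0.0444). The median CV of the 55 gene models was 34.9% in eggs and 25.7% in embryos, beside 39.3% and 28.6% over all tested. Their median level was higher, 17.9 and 14.4 FPKM beside 6.95 and 7.81 FPKM, and the CVs were not matched for level. Egg 3 was the highest egg for 22 of the 55 (40.0%, against 27.5% of all gene models tested) and embryo 5 the highest embryo for 23 (41.8%, against 29.5%).

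Genes that work with these factors were counted from further lists. Of the Mediator, which links activators to the polymerase, 19 of 52 tested gene models were higher in eggs and 7 in embryos, with a median log2 change of -0.37. Med28 (log2 change -2.47) and med24 (-2.54) were among the former, and med9 (3.12) among the latter. TBP partners and TAFs of other complexes had 4 of 13 higher in eggs, namely btaf1, taf6l, taf1a and 1 of 2 taf5l gene models, and none higher in embryos (limma, with 1 at an unadjusted p under 0.05, and a median of -0.08). BTAF1, an ATPase that removes TBP from DNA, went from 25.0 ± 3.76 to 10.7 ± 1.74 FPKM (log2 change -1.15). The RNA polymerase III factors had 3 of 17 higher in embryos and 5 in eggs (median -0.05), with both brf2 gene models falling (log2 change -2.09 and -1.46) and 1 of 2 snapc3 gene models rising (2.14). The other snapc3 gene model was not called (-0.21, limma adjusted p = 0.600).

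The excision repair partners of TFIIH had 8 of 15 tested gene models higher in embryos and 4 in eggs, with a median log2 change of 1.04. Those higher in embryos included ercc5 (log2 change 1.84), xpa (1.58), xpc (1.04) and ercc6 (1.59), while ddb1 (-1.73), both tested ddb2 gene models (-2.02, and -1.68 for one that also carries the name cat.2) and a gene model named cetn1 and cetn2 (-2.89) were higher in eggs. Another ddb2 gene model was too low to be tested. These lists were counted against the same backgrounds of 31.6% and 25.2%, and no set test was made. They include gene models that also carry the name of another gene. Among those called are sdccag3:snapc4 and rpf2:med6, higher in embryos, and aifm2:tuba3c:med26, higher in eggs.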

How the data were processed

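The libraries were 42-base single-end reads of RNA depleted of ribosomal RNA, mapped by the authors to assembly JGI 7.1 with gmap and quantified with Cufflinks 2.1.1 for 54110 gene models. The deposited FPKM values were used as they stand. The libraries were prepared to be strand-specific. The sample records also list Cuffdiff, without a version. The method of scaling between libraries and the use of strand in counting are not given in the sources used here. Median-of-ratios factors of the deposited values were 0.982 to 1.06 in the single libraries. Single libraries were compared. The deposited FPKM of reads merged per stage served as an alternative for the shares, and 45 columns of confidence bounds and status were not used. Scaffold positions are those of the deposited gene models, with leading zeros of scaffold names dropped and both ends counted from 1.

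The comparison of 5 eggs with 5 embryos used limma 3.58.1 (R 4.3.3) with a variance trend. It was fitted to log2(FPKM + 1) of the 19373 gene models whose mean reached 1 FPKM. Copies were compared by limma on their log2 difference within each library, for each name, aliases included, that exactly 2 gene models of the whole table carry, where both were tested. Gtf2a1 entered through the alias of its first 2 copies, and taf5, with 4 gene models, formed no pair. Adjustment was by Benjamini-Hochberg over all tests of a kind, with a threshold of 0.05. Levels are means ± SD, and the log2(FPKM + 1) scale understates changes of low gene models. Shares of summed FPKM were described without a test. Both fits were tested on simulated data. The libraries are separate eggs and embryos, and replicate numbers did not pair them.

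The files hold no counts. Reads per library were worked out from the spacing of low FPKM values, with effective lengths for fragments of mean 200 and SD 80 bases. Among values below 20 reads, 88.8% to 91.8% were whole multiples, within 0.1, in each library. Limits at 0 are 3 reads and cover counting error only.

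All gene models of TBP and its paralogues, TFIIA, TFIIB and TFIIE were named. For the TAFs, TFIIF and TFIIH, up to 4 called gene models with the largest change per complex and direction were named, with all unequal pairs. Taf11, taf8, ercc3, cdk7, mnat1, gtf2h2 and gtf2f2, the first taf3 copy and the genes named from the further lists were added after their values were seen. The members and lists were chosen with earlier results of these data known. Alternatives changed the filter, pseudocount, scaling, replicate block, the libraries included and the handling of copies. No sequence was shown, since none was used here.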

Additional observations from a re-analysis of the deposited data

Results flagged for a closer look

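Among the 78 groups of 5 libraries of the named and tested gene models, 7 held a library whose gap to its nearest neighbour exceeded 0.71 of the group's range. For normally distributed values chance alone gives about 1 in 20. FPKM values, some of them 0, need not be so distributed, so the 7 of 78 cannot be read against that rate. In eggs these were egg 3 for the second tbpl1 copy (38.3 FPKM, the others 0.707 to 2.43), and egg 1 for the second gtf2e1 copy (38.2 FPKM, the others 8.86 to 12.5), the fourth gtf2e1 copy (2.60 FPKM, the others 0 to 0.559) and the second gtf2f1 copy (1.88 FPKM, the others 0.421 to 0.646). In embryos they were embryo 1 for the second taf13 copy (1.04 FPKM, the others 0 to 0.0722), embryo 4 for the second gtf2e1 copy (6.95 FPKM, the others 0) and embryo 5 for the fourth gtf2a1 copy (9.45 FPKM, the others 5.46 to 6.55).

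The 3 technical libraries of stage 10.5 entered no test, and for 8 named gene models all 3 lay above the 5 single embryos of that stage. Their means were 504 FPKM for the first gtf2a2 copy, 554 FPKM for the second, 291 FPKM for the main ccnh gene model, 178 FPKM for the first taf12 copy, 57.3 FPKM for the first taf13 copy, 44.0 FPKM for taf7, 15.9 FPKM for tbpl2 and 2.05 FPKM for the second gtf2b copy. The highest single embryos of these were at 338, 335, 262, 146, 49.0, 37.3, 11.1 and 1.30 FPKM. Of the 55 tested gene models, 12 (21.8%) lay above in this way and 3 (5.45%) below, beside 8.63% and 8.92% of all gene models tested. What sets these libraries apart from the single embryos was not tested.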

How the results depend on the processing

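The counts of 13 gene models higher in embryos and 16 higher in eggs, and of 5 unequal copy pairs, stayed within 1.5 times under every alternative except summed copies, which left 10 genes higher in eggs because 33 genes replaced the 64 gene models. Summed over copies, gtf2a1 changed by -0.82 log2 units, against the rise of gtf2a1 copy 4, and gtf2e1 by -1.03, against the uncalled gtf2e1 copies 3 and 4. Summing also ended the calls of tbp, taf9, taf13 and gtf2f1 and added taf5, as given above. Leaving out each library in turn gave 10 to 15 higher in embryos, 14 to 17 higher in eggs and 4 to 7 unequal pairs. It gave mean shares of tbpl2 of 7.59% to 10.1% in eggs and 3.02% to 3.798% in embryos, and of gtf2a1l of 3.15% to 3.90% in eggs and 10.5% to 13.5% in embryos. Without the gene models that carry the name of another gene or an opposite-strand overlap, an alternative chosen after seeing the data, 9 and 11 were called. Of the 28 named gene models that were called, 22 kept direction and call under every one of the 15 alternatives other than summed copies in which they were tested, and no called one reversed under those. Of these 22, 17 were tested in all 15, while taf1, taf2 copy 2, taf3 copy 2, gtf2a1 copy 4 and gtf2f1 copy 2 fell below the filter of 5 FPKM, which also left the taf2, taf3, gtf2b and gtf2f1 pairs untested. The exceptions are tbp copy 1, tbpl2, taf2 copy 1, taf9 copy 1, taf15 copy 2 and gtf2a2 copy 1, for which the cause was not tested.

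Same-numbered eggs and embryos did not deviate together (correlations -0.017 to 0.074), and 2 of 5 numbers correlated best with their own. With the replicate block, 12 gene models were higher in embryos, 16 higher in eggs and 4 pairs unequal, the first gtf2a2 copy (adjusted p = 0.0542) and the taf12 pair (adjusted p = 0.0737) being lost. Median-of-ratios scaling moved the median change of all gene models from 0.12 to 0.19. Depth limits the gene models near 1 FPKM, above all the second gtf2b copy, gtf2e1 copy 4 and the untested ones.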
